A study of Homo sapiens with 9 samples.

Results

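The control cells of a RASSF2 knockdown experiment in THP-1, a human monocytic leukaemia cell line, are described here by what they transcribe, gene by gene. The members are the 3 RNA sequencing libraries whose column names read shCTRL, out of 9 libraries in all, and every one of the 18522 genes in the deposited table was considered. No knockdown library was compared with them, so the values below are levels, ranks and the spread between the 3 controls.

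The study put lentiviral shRNAs into THP-1 cells, 1 control construct (shCTRL, clone identifier SHC002) and 2 constructs against RASSF2, with 3 libraries in each of the 3 groups. The control cells were therefore not untreated cells: like the knockdown cells they carried a lentivirus and had been kept in puromycin at 1 ug/mL for 96 h. They were grown in RPMI with 10% FBS and 1% penicillin/streptomycin, and RNA was taken with TRIzol from the same number of viable cells for every condition. Poly(A) RNA was captured on oligo(dT) beads and copied with random primers. All libraries come from a single cell line, and the labels do not say that the 3 controls were separate cultures, so the spread between them may be technical. The description label puts control replicates 1 and 2 on a shared flow cell and replicate 3 on another.

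THP-1 was derived from an acute monocytic leukaemia and is widely used as a model of monocytes, which it resembles more than macrophages until it is differentiated with a phorbol ester. Its cells carry a fusion of KMT2A, a histone methyltransferase gene, with MLLT3, a gene of the super elongation complex. In leukaemias with such fusions the HOXA genes, which encode homeobox transcription factors, and their cofactor MEIS1 are commonly transcribed. Normal monocytes are defined by surface proteins such as CD14, Fc receptors and the CSF1 receptor, by the transcription factors SPI1, IRF8 and CEBPA, and by lysosomal and antimicrobial proteins. RASSF2 belongs to a family of Ras-association domain proteins, several of which bind the Hippo kinases STK3 and STK4.

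The deposited values are read counts divided by a scaling factor per library, and the reads behind them could be recovered. The libraries held 13938612, 20103374 and 16999264 reads on genes in replicates 1, 2 and 3, and levels are given below as CPM, the reads of a gene per 1000000 reads of the library. At these depths 3 reads, the limit that a count of 0 allows, correspond to 0.215, 0.149 and 0.176 CPM, which covers counting error only. A gene is called present where it had at least 1 CPM in all 3 controls, low where it had reads but missed that level in at least 1 control, and at 0 where no control had a read. Replicate 1 stood apart from replicates 2 and 3 over a large share of genes, as described at the end, and the values of all 3 are therefore printed for each gene that matters.

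Of the 18522 genes, 12940 (69.9%) were present, 5393 were low and 189 were at 0 in all 3 controls. Averaged over the controls, 9546 genes reached 10 CPM, 2346 reached 100 CPM and 82 reached 1000 CPM. Leaving out replicate 1 gave 13240 present genes. RefSeq types 15316 of the genes as protein coding, and these took 97.0% of the reads, while 1784 long noncoding RNA genes took 0.816%. The reads were spread over many genes: the 100 genes with the most reads took 20.96%, 21.6% and 19.7% of the library in replicates 1, 2 and 3, and 887, 909 and 995 genes together held 50% of it. Replicate 3 had the flattest distribution on both measures.

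Mitochondrial transcripts and a small set of housekeeping, chaperone and myeloid genes took the most reads. Of the 30 genes with the highest mean CPM, 11 are encoded in the mitochondrial genome and 19 in the nucleus. The mitochondrial genome as a whole took 6.76%, 7.45% and 5.86% of the reads. Its large ribosomal RNA, RNR2, had 22683, 12125 and 9008 CPM, and was the top gene of replicate 1 only. COX1, a subunit of cytochrome c oxidase, had 10580, 13374 and 10348 CPM and led replicates 2 and 3. The NADH dehydrogenase subunits ND4, ND1, ND5, ND2 and ND3, the oxidase subunits COX2 and COX3, ATP6 and CYTB complete the mitochondrial group. Within the group the order of the libraries differed from gene to gene. ND3 had 398 CPM in replicate 1 against 2488 and 2111 CPM in the others, whereas ND5 had 5068, 3712 and 2712 CPM.

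The nuclear gene with the most reads was CAP1, at chr1:40040240-40072648 (GRCh38), which encodes an actin-binding regulator of adenylate cyclase and filament turnover. CAP1 had 9575, 9271 and 9350 CPM, a mean of 9399 ± 158 (SD, n = 3), and its 3 values lay closer together than those of any other gene among the first 10. YBX1, a cold-shock domain protein that binds RNA and DNA, had 6904, 7334 and 6586 CPM. EEF1A1, the translation elongation factor that delivers tRNA to the ribosome, had 7375, 6829 and 5989 CPM. ACTB, cytoplasmic actin, had 3841, 5973 and 6557 CPM, so that replicate 1 was below the others.

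After these came PPT1, a lysosomal thioesterase, with 2727, 3107 and 3019 CPM, and SRGN, the core protein of the granule proteoglycan serglycin, with 3588, 2533 and 2407 CPM. Serglycin holds granule proteases, and 1 of these was also in the first 30: CTSG, the neutrophil and monocyte protease cathepsin G, had 1629, 2115 and 1914 CPM. CHI3L1, a secreted chitinase-like protein of macrophages and neutrophils, had 1676, 2052 and 2492 CPM. FTL, the light chain of the iron store ferritin, had 1307, 1946 and 2145 CPM, and LYST, the large lysosome-trafficking protein, had 1894, 1523 and 1536 CPM. The remaining nuclear genes of the first 30 were ACTG1, PTMA, HSPA8, HSP90AB1, HNRNPU, RPS2, ENO1, EEF2 and HSP90AA1, that is an actin, prothymosin, 3 cytosolic chaperones, an RNA-binding protein, a ribosomal protein, a glycolytic enzyme and the translocating elongation factor.

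**Figure D1:**
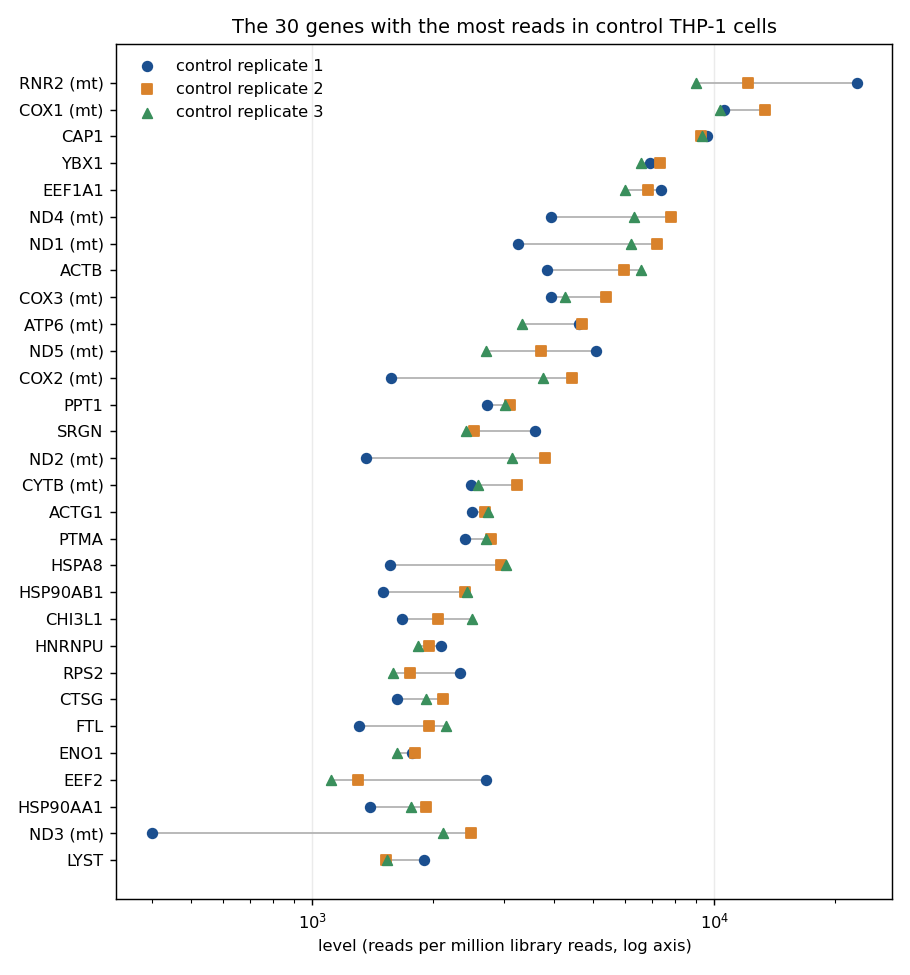
Levels of the 30 genes with the most reads in control THP-1 cells, in CPM on a log axis, with a marker for each of the 3 control libraries and a line over their range; mt marks mitochondrial genes. CAP1 lies between 9271 and 9575 CPM in all 3, while ND3 runs from 398 to 2488.

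The order depended on the library. Of the 30 genes, 17 were in the top 30 of each library. Replicates 2 and 3 shared 27 of their top 30 genes, replicates 1 and 2 shared 20, and replicates 1 and 3 shared 17. For 6 of the 30 genes the lowest and highest control differed at least 2-fold.

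Reads per gene favour long transcripts, so levels between genes were compared per kilobase of coding length. On that scale RPL41, a ribosomal protein, and TMSB4X, the actin-sequestering peptide thymosin beta, came first, with 11414 and 11357 CPM per coding kilobase. Their coding sequences are short, 75 and 132 bases, within longest transcripts of 699 and 1702 bases. Per kilobase of all annotated exons they had 787 and 879 CPM, and COX1 came first with 7415. CAP1 stayed among the first 4 genes with 6595 CPM per coding kilobase and YBX1 followed in the sixth place with 6192. SRGN reached 5998 and PTMA 5932, each above EEF1A1 with 4856 and ACTB with 4851 on the same scale. Per kilobase of all annotated exons SRGN had 2330 CPM, ACTB 1551, EEF1A1 1132 and PTMA 778. The place of PTMA thus depended on the length used. The other genes of the first 20 per coding kilobase were the mitochondrial COX1, ATP6, ND1, COX3, ND4L, ND3, COX2 and ND4, the ribosomal protein genes RPL37 and RPS27, the nucleosome-binding HMGN2, and FTL. Of the top 30 by reads, 15 were also in the top 30 per coding kilobase, and 21 were in the top 30 when the union of all annotated exons was used as the length. Ribosomal protein genes were 27 of the top 100 genes by reads and 47 of the top 100 per coding kilobase. Their place also depended on the length used: RPL37 and RPS27 ranked 12 and 13 per coding kilobase, but 148 and 20 per kilobase of all annotated exons.

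Promoters of 4 genes are shown because they stand for the 2 kinds of gene just described, the lineage genes and the widely used ones: CTSG and S100A9 had the most reads in the granule and monocyte gene lists below, and CAP1 and YBX1 the most of all nuclear genes. Each runs from 250 bases before to 50 bases after the annotated start, 5′ to 3′ on the gene's strand, from RefSeq's GRCh38.p14 sequences. CTSG is at chr14:24576201-24576500 (minus strand), S100A9 at chr1:153357604-153357903 (plus), CAP1 at chr1:40039990-40040289 (plus) and YBX1 at chr1:42682168-42682467 (plus). Capitals mark matches on either strand to 4 motifs: TATAAA, the TATA box; CCAAT, bound by NF-Y; GGGCGG, the GC box of the SP family; and GAGGAA, the core of SPI1 sites. No matches overlap in these 4 sequences.
CTSG: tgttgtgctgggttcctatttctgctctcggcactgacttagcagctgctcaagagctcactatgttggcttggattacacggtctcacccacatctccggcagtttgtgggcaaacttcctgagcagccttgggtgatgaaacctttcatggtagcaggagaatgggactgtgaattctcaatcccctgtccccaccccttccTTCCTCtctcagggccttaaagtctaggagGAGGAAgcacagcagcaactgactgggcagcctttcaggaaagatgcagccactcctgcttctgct
S100A9: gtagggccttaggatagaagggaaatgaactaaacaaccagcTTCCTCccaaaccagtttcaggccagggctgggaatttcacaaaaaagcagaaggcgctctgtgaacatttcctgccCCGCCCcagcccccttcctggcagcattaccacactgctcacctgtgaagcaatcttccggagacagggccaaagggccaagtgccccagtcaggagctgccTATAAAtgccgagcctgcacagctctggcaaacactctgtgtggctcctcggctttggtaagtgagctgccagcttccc
CAP1: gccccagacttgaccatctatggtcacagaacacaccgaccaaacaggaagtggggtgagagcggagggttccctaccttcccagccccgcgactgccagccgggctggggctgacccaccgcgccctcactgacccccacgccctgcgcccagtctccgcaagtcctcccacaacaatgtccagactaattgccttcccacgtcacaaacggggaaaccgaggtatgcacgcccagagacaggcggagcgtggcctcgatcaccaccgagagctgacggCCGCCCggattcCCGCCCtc
YBX1: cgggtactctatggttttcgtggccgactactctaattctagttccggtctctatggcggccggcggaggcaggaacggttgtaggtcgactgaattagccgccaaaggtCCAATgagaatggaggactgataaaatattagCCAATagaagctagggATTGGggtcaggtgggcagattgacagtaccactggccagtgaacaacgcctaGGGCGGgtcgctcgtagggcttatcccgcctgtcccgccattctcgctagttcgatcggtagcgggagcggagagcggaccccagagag

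CTSG has 2 matches to the SPI1 core and none to the other 3 motifs, and S100A9 has 1 match each to the TATA box, the SPI1 core and the GC box. CAP1 has 2 GC boxes, and YBX1 has 1 GC box and 3 CCAAT boxes. The dinucleotide CG occurs 3 times in the CTSG window and 5 times in that of S100A9, against 22 times each in CAP1 and YBX1. Over all 12368 coding genes of the table with a promoter of this length, 27.5% hold the SPI1 core, 6.78% the TATA box, 65.8% the GC box and 35.6% the CCAAT box, and the median number of CG is 25. Among the 23 present members of the monocyte and granule lists with a promoter, 56.5% hold the SPI1 core, 26.1% the TATA box, 39.1% the GC box and 17.4% the CCAAT box, and the median number of CG is 3. In the same order of motifs, the shares were 27%, 15%, 74% and 43% for the 100 nuclear coding genes with the most reads, with a median of 25.5 CG. They were 28.4%, 22.2%, 39.5% and 30.9% for the coding genes at 0 in all 3 controls, 81 of which had a promoter, with a median of 9 CG. A further string searched but not marked in capitals, CGCG, was in 73.9% of all these promoters, in 3 of the 23 of the monocyte and granule lists, in 77% of those of the 100 nuclear genes and in 39.5% of those at 0. These are matches of letters and say nothing of binding.

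Monocyte genes were present about as often as any gene in the table. Of a list of 28 monocyte genes, 27 were in the table, 19 of these were present (70.4%, where 69.9% of all genes in the table were), 8 were low and none was at 0. The median level of the 27 was 67.4 CPM, against 11.4 CPM over all 18522 genes. S100A9, a calcium-binding alarmin, had 453, 486 and 466 CPM in replicates 1, 2 and 3. LYZ, lysozyme, had 565, 376 and 328 CPM and so was highest in replicate 1. CCR2, the receptor that draws monocytes out of the marrow, had 195, 259 and 266 CPM.

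CD68, a lysosomal glycoprotein, had 295, 190 and 174 CPM. Per coding kilobase, S100A9 was at 1370 CPM, LYZ at 953, CCR2 at 214 and CD68 at 207. The following members were picked after their values were seen, because they define the lineage. The adaptor FCER1G had 120, 185 and 231 CPM, its partner TYROBP 66.4, 126 and 142 CPM, and the high-affinity IgG receptor FCGR1A 105, 136 and 152 CPM, each lowest in replicate 1. CSF1R, the receptor for the monocyte growth factor CSF1, had 187, 135 and 132 CPM. The integrin chain ITGAM had 30.1, 30.9 and 32.3 CPM, close together in all 3 controls.

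CD14, the co-receptor for bacterial lipopolysaccharide, was not among the present genes. It had 12, 21 and 39 reads, or 0.861, 1.04 and 2.29 CPM. FCN1, the secreted lectin ficolin of blood monocytes, had a single read, in replicate 2. S100A12, CLEC7A, SERPINA1, CD163, LST1 and VNN1 were the other low members, with means between 0.151 and 0.979 CPM. LST1 lies in the histocompatibility region of chromosome 6 described below, and whether counting lost reads there was not tested. Against its label of a monocytic line, the group therefore had 19 of the monocyte markers at 1 CPM or more and CD14 at a mean of 1.40 CPM.

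Of 21 macrophage genes, all were in the table, 12 were present (57.1%, against 69.9% of all genes) and 9 were low. Their median level was 2.24 CPM. CHI3L1 took the most reads, as above. SIGLEC1, a sialic-acid receptor, had 427, 293 and 351 CPM, TREM2, a lipid receptor of macrophages, had 97.3, 116 and 128 CPM, and LPL, lipoprotein lipase, had 32.4, 43.3 and 46.0 CPM. The genes of the complement component C1q, C1QA, C1QB and C1QC, had means of 0.480, 0.216 and 0.533 CPM, and the mannose receptor MRC1 had 0, 0.249 and 0.235 CPM. In 15 of the 21 genes replicate 3 had the highest normalized value, as it did in 34.1% of all genes with a read. The summed level of the list was 2266, 2559 and 3087 CPM. Of these sums CHI3L1 alone held 1676, 2052 and 2492 CPM, so their rise describes that gene and not the list.

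Of 24 granule and granulocyte-monocyte progenitor genes, 17 were in the table, 11 of them present and 6 low. The share present was 64.7%, near the 69.9% of all genes. CTSG had a mean of 1886 ± 244 CPM (SD, n = 3) and 2465 CPM per coding kilobase. CEBPA, the transcription factor of the granulocyte-monocyte progenitor, had 466, 376 and 377 CPM, and CSF3R, the receptor for granulocyte colony-stimulating factor, had 155, 110 and 132 CPM. RNASE2, a granule ribonuclease, had 88.3, 327 and 371 CPM, and replicate 1 was far below both others.

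The other azurophil granule genes were much lower than CTSG on the per-length scale. ELANE, neutrophil elastase, had 19.9, 12.9 and 13.2 CPM, and 19.1 CPM per coding kilobase. MPO, myeloperoxidase, had 3.52, 3.33 and 3.18 CPM, and 1.495 CPM per coding kilobase. AZU1, azurocidin, had 0.287, 0.398 and 1.24 CPM, and PRTN3 was not in the table and was not analysed here. MPO, ELANE and AZU1 were named after their values were seen.

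Of 17 stem-cell and progenitor genes, 15 were in the table, 7 were present (46.7%, against 69.9% of all genes), 6 were low and 2, HOPX and CRHBP, were at 0. The adaptor LMO2 had 222, 198 and 210 CPM, EGFL7 had 44.9, 27.4 and 30.5 CPM, and the receptor tyrosine kinases FLT3 and KIT had means of 27.3 ± 1.51 and 25.03 ± 1.54 CPM (SD, n = 3). CD34, the surface antigen of stem and progenitor cells, had 0, 3 and 5 reads, or 0, 0.149 and 0.294 CPM. The stem-cell regulator MECOM had 0, 0.149 and 0 CPM, at the limit of what these depths can show.

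Of 36 myeloid and haematopoietic transcription factors, 35 were in the table, 28 of these were present (80%, against 69.9% of all genes) and 7 were low. IRF8, which directs progenitors to the monocyte and dendritic lineage, had 448, 547 and 558 CPM, and MYB, a regulator of progenitor growth, had 335, 486 and 504 CPM. GFI1, a repressor active in granulocyte progenitors, had 433, 415 and 447 CPM. SPI1, the ETS factor PU.1, had 301, 351 and 387 CPM and 426 CPM per coding kilobase, the highest value of the list on that scale. Next on the per-length scale were IRF8 with 405, CEBPA with 378 and GFI1 with 341 CPM per coding kilobase. GATA1, the erythroid factor, had 0.287, 0.149 and 0.235 CPM.

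Of 35 cytokine, growth factor and pattern-recognition receptors, 34 were in the table, 28 were present (82.4%, against 69.9% of all genes) and 6 were low. IL6R, the interleukin-6 receptor, had 840, 595 and 571 CPM, and TGFBR1 had 266, 165 and 157 CPM, each highest in replicate 1. The lipoprotein sensor TLR2 had 106, 102 and 110 CPM, and TLR4, the lipopolysaccharide sensor, 20.1, 20.99 and 18.3 CPM. TLR3, TLR8 and TLR10 were low. CSF2RA and IL3RA were low too, and lie in the pseudoautosomal region described below, where lost reads were not tested. In 21 of the 34 receptors replicate 1 had the highest normalized value, as it did in 40.5% of all genes with a read.

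Of 20 targets and cofactors of KMT2A fusions, all were in the table and 19 were present (95%, against 69.9% of all genes). MYB is among them, and JMJD1C, a demethylase family protein, had 443, 369 and 356 CPM. The cell cycle kinase CDK6 had 380, 250 and 244 CPM, and MEF2C, a MADS-box factor, 275, 232 and 208 CPM. PBX3, a partner of HOX proteins, had 140, 159 and 174 CPM. KMT2A itself had 191, 114 and 122 CPM and MLLT3 5.88, 5.57 and 5.53 CPM, and the table does not tell reads of the fusion transcript from those of either parent gene. The 1 member not present was MEIS1, with 0, 0.0497 and 0.0588 CPM, that is no more than 1 read in any library.

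The HOX genes differed by cluster. In the HOXA cluster all 11 genes were in the table, 6 were present (54.5%, against 69.9% of all genes) and 5 were low. Its 5′ members had the highest levels per coding kilobase: HOXA13 with 54.1 CPM, HOXA11 with 27.97, HOXA10 with 26.9 and HOXA9 with 12.7. HOXA13 had 61.8, 65.1 and 61.9 CPM in the 3 controls, HOXA10 had 31.0, 28.6 and 39.7 CPM and HOXA11 had 20.2, 29.05 and 29.6 CPM. HOXA9, a leukaemia-associated member, had 7.03, 14.1 and 9.88 CPM, with replicate 2 above both others. HOXA5 had a mean of 2.14 CPM, and HOXA2, HOXA3, HOXA4, HOXA6 and HOXA7 between 0.243 and 0.949 CPM.

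In the HOXB cluster 7 of 10 genes were in the table. HOXB3 had 9.61, 10.99 and 11.9 CPM, HOXB4 had 5.45, 5.02 and 6.41 CPM and HOXB13 had 1.43, 1.79 and 1.29 CPM. HOXB6, HOXB7 and HOXB9 were low, with means between 0.223 and 0.535 CPM, and HOXB2 was at 0. Of 9 HOXC genes 4 were in the table, HOXC4, HOXC6, HOXC9 and HOXC10, all low with means of at most 0.309 CPM. None of the 9 HOXD genes was in the table, and they were not analysed here.

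Of 40 tumour suppressors and oncogenes of leukaemia, 38 were present (95%, against 69.9% of all genes). NPM1, a nucleolar chaperone, had 731, 898 and 957 CPM, MCL1, a survival protein of the BCL2 family, had 495, 641 and 652 CPM, and the cohesin subunit RAD21 and the splicing factor SF3B1 had means of 437 ± 87.4 and 421 ± 54.3 CPM (SD, n = 3). The 2 members not present were CDKN2A, with 3, 1 and 7 reads, and HRAS, with 11.3, 7.81 and 0.353 CPM. CDKN2A and HRAS were named after their values were seen.

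Markers of lymphoid cells were mostly low or not in the table. Of 54 T, B and NK cell genes, 34 were in the table and 14 of these were present (41.2%, against 69.9% of all genes), a count that stayed at 14 when any 1 control was left out. Only 6 of them had at least 5 CPM in every control. CD4, which human monocytes also carry on their surface, had 299, 236 and 232 CPM. IL7R had 17.0, 18.2 and 15.6 CPM, and the T cell factor TCF7 had 8.61, 6.37 and 6.29 CPM.

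CD3E and CD3G, chains of the T cell receptor complex, had means of 0.108 and 0.239 CPM, and the reads of CD3G came from replicate 1 alone. PAX5, the B cell identity factor, had 61.2, 30.2 and 33.8 CPM, highest in replicate 1. Of genes usually expressed beside it in B cells, CD79A had 0.0717, 0.249 and 0.647 CPM and EBF1 0.215, 0.199 and 0.412 CPM. Other B cell genes had reads: of the 11 in the table, 6 were present (54.5%, against 69.9% of all genes). The 11, PAX5 included, summed to 82.4, 48.3 and 53.7 CPM, and 2 of them averaged 5 CPM or more. NKG7, a cytotoxic granule protein, had 6.24, 7.51 and 6.71 CPM, and the T-box factor EOMES 6.17, 5.32 and 3.71 CPM. In a bulk library a few cells with much of an RNA and many cells with little of it cannot be told apart.

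Of the markers of other blood lineages in the table, 33.3% of the erythroid, 50% of the megakaryocyte, 14.3% of the mast cell and eosinophil and 35.7% of the dendritic cell genes were present, against 69.9% of all genes. Of 17 erythroid genes only 6 were in the table and 2 were present, the transferrin receptor TFRC with 243, 304 and 305 CPM, which all dividing cells need, and EPOR with 5.24, 8.16 and 8.82 CPM. Of 13 megakaryocyte genes 6 were in the table and 3 present, and GP1BA was the 1 member averaging 5 CPM or more, at 9.11, 4.38 and 4.82 CPM. Of 11 mast cell and eosinophil genes KIT alone was present. Of 18 dendritic cell genes 14 were in the table and 5 present: IRF8, the factors TCF4, ZBTB46 and BATF3 with means of 23.2, 12.4 and 9.97 CPM, and the adhesion protein CADM1.

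Outside the blood, PECAM1 and ENG, adhesion and TGF-beta co-receptor proteins that endothelium shares with monocytes, had means of 359 ± 53.9 and 108 ± 14.7 CPM (SD, n = 3). The remaining 10 endothelial genes had means of at most 3.32 CPM. In the muscle list, TTN, the giant protein titin, had 40.2, 43.0 and 50.6 CPM but 0.413 CPM per coding kilobase, and CKM, muscle creatine kinase, had 16.1, 14.0 and 13.5 CPM and 12.7 CPM per coding kilobase. In the fibroblast list TWIST1 had 11.7, 11.3 and 11.8 CPM and TAGLN 4.09, 4.97 and 6.12 CPM, and COL1A2 and POSTN were at 0. Of the hepatocyte genes 8, of the germ line genes 4 and of the neuron genes 6 were in the table, and 0, 0 and 4 were present. The neuron share was 66.7%, near the 69.9% of all genes. Of the epithelial, endothelial, fibroblast and muscle genes in the table, 26.7%, 41.7%, 38.5% and 40% were present.

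**Figure D2:**
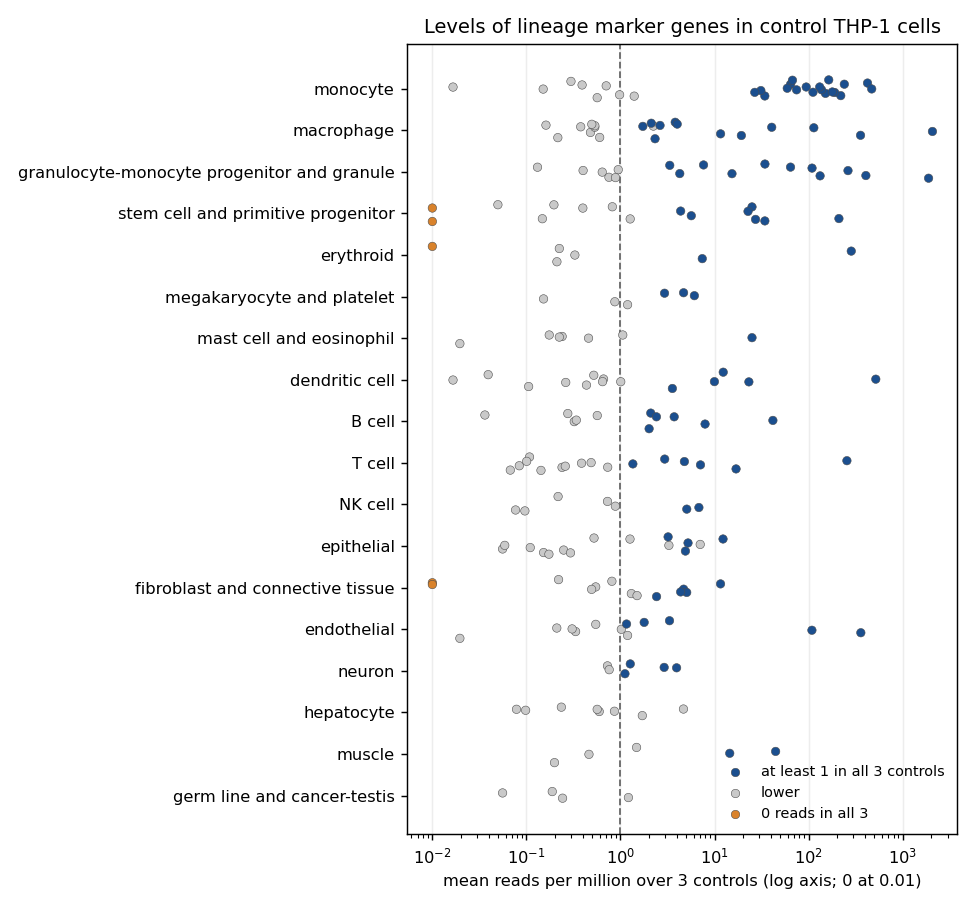
Mean level of each marker gene over the 3 controls, in CPM on a log axis, by lineage list; colour tells genes with at least 1 in all 3 controls, lower genes and genes without a read, which are drawn at 0.01. In the monocyte list 19 of 27 genes have at least 1 CPM in all 3 controls, against 14 of 34 T, B and NK cell genes over their 3 rows.

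Epithelial and hepatocyte markers differed between the controls. The mucin MUC1 had 8.18, 12.3 and 16.5 CPM and the tight-junction claudin CLDN7 3.30, 5.02 and 7.35 CPM, each highest in replicate 3. FCGBP, a mucus protein, had 0.215, 0.149 and 20.8 CPM, and ALB, albumin, had 0.215, 0.448 and 13.4 CPM. The keratins KRT18 and KRT8 had 0, 0.0497 and 9.77 CPM and 1.00, 1.29 and 12.4 CPM. FCGBP, ALB, KRT18 and KRT8 had reads in replicate 3 at a level that replicates 1 and 2 did not show. MUC1 and CLDN7 rose in steps from replicate 1 to replicate 3.

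Summed over the 15 epithelial genes in the table the level was 16.9, 23.5 and 76.1 CPM, and 12 of the 15 were highest in replicate 3, where 34.1% of all genes with a read were. Summed over the 8 hepatocyte genes it was 1.79, 2.59 and 22.1 CPM, and all 8 were highest in replicate 3. The defining transcription factor of hepatocytes in the list, HNF4A, had 0, 0 and 0.294 CPM. What brought these reads into replicate 3 was not tested.

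Of 13 genes of the RASSF family and the Hippo kinases it binds, 10 were present (76.9%, near the 69.9% of all genes). RASSF2, the gene the study targeted, had 65.5, 64.6 and 63.4 CPM, a mean of 64.5 ± 1.05 (SD, n = 3), and ranked 3662 of 18522 genes by reads and 2514 of 15347 per coding kilobase. Its reads did not pass a test for spread beyond counting error, which 71.8% of genes passed. This was a chi-square test of a gene's reads against each library's total reads (Benjamini-Hochberg FDR 0.05 over 13608 genes). RASSF4 had 111, 116 and 125 CPM, RASSF5, which binds STK4 in leukocytes, had 104, 81.4 and 78.4 CPM, and RASSF1, a tumour suppressor often silenced in solid tumours, had 50.7, 66.1 and 82.8 CPM.

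Per coding kilobase the order was RASSF4 with 122 CPM, RASSF5 with 70.1, RASSF2 with 65.9, RASSF1 with 64.5, RASSF3 with 31.8 and RASSF8 with 16.2 CPM. The spread of RASSF1 and RASSF5 over the controls covers the distance between these and RASSF2, so the order of the 3 is not resolved. RASSF9 had a mean of 1.85 CPM and was present. RASSF6, RASSF7 and RASSF10 were low, with means of 0.194, 1.93 and 0.220 CPM, and RASSF7 had 0.430 CPM in replicate 1 against 1.94 and 3.41 CPM. STK4 had 123, 160 and 147 CPM and STK3 15.0, 30.6 and 32.2 CPM, with replicate 1 lowest in both, and the scaffold SAV1 had a mean of 32.6 ± 4.21 CPM (SD, n = 3).

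Levels along the chromosomes were described over windows of 5 coding genes that neighbour each other in the table. The median window of 15207 had a mean log2(CPM + 1) level of 4.05. The highest window, at 9.64, was chr1:39895428-40240921, with MYCL, MFSD2A, CAP1, PPT1 and RLF, and the next, at 8.95, was chr1:40258236-40496343, with ZMPSTE24, COL9A2, SMAP2, ZFP69B and ZFP69. The annotated spans of CAP1 and PPT1 overlap by a short stretch, so reads there are uncertain.

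Genes around CAP1 with narrow use in other tissues also had reads here. COL9A2, a cartilage collagen chain, had normalized counts of 19734, 15754 and 19535, a mean of 1113 ± 150 CPM (SD, n = 3). MFSD2A, a lipid transporter of brain endothelium and liver, had 5989, 6309 and 6863 on the same scale of normalized counts. The level was not uniform: TMCO2, between RLF and ZMPSTE24, had 1, 1 and 0 reads. A further 7 of the 10 highest windows hold RPL6 to OAS2 and ANO6 to SLC38A2 and BAZ2A to PRIM1 on chromosome 12, TNRC18 to RNF216 with ACTB on chromosome 7, TARBP1 to ARID4B on chromosome 1, PPP1R27 to ANAPC11 on chromosome 17 and RNF19A to ZNF706 on chromosome 8.

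Among the lowest windows was chr9:21077104-22009313, with IFNB1, KLHL9, MTAP, CDKN2A and CDKN2B and a mean log2(CPM + 1) of 0.22. MTAP, a ubiquitous enzyme of methionine salvage, had 0, 1 and 4 reads in the 3 controls, and CDKN2A, which encodes the cell cycle inhibitors p16 and ARF, had 3, 1 and 7 reads. CDKN2B had 0, 1 and 1 reads, KLHL9 4, 2 and 3 reads and IFNB1 0, 6 and 10 reads. On the telomeric side the next genes were transcribed: HACD4 had 684, 1038 and 937 reads and FOCAD 693, 1150 and 820, while MLLT3 had 82, 112 and 94. On the other side ELAVL2 had 55, 115 and 113 reads. The remaining 4 genes of a list of 13 from this region, DMRTA1, IFNA1, IFNE and CDKN2B-AS1, were not in the table and were not analysed here.

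The other low windows were the fibrinogen genes FGB, FGA and FGG with MAP9 and GUCY1A1 (0.098), a block of histone genes from HIST1H2BL to HIST1H2AK, whose mRNAs carry no poly(A) tail (0.18), the pregnancy glycoproteins with CEACAM1 and LYPD3 (0.21), HAMP to SBSN, FUT2 to FUT1 and CACNG8 to TFPT on chromosome 19, TCF19 to LST1 with HLA-B and HLA-C on chromosome 6 (0.28), TAS2R60 to CTAGE6 on chromosome 7 and CASK to FUNDC1 on the X chromosome.

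**Figure D3:**
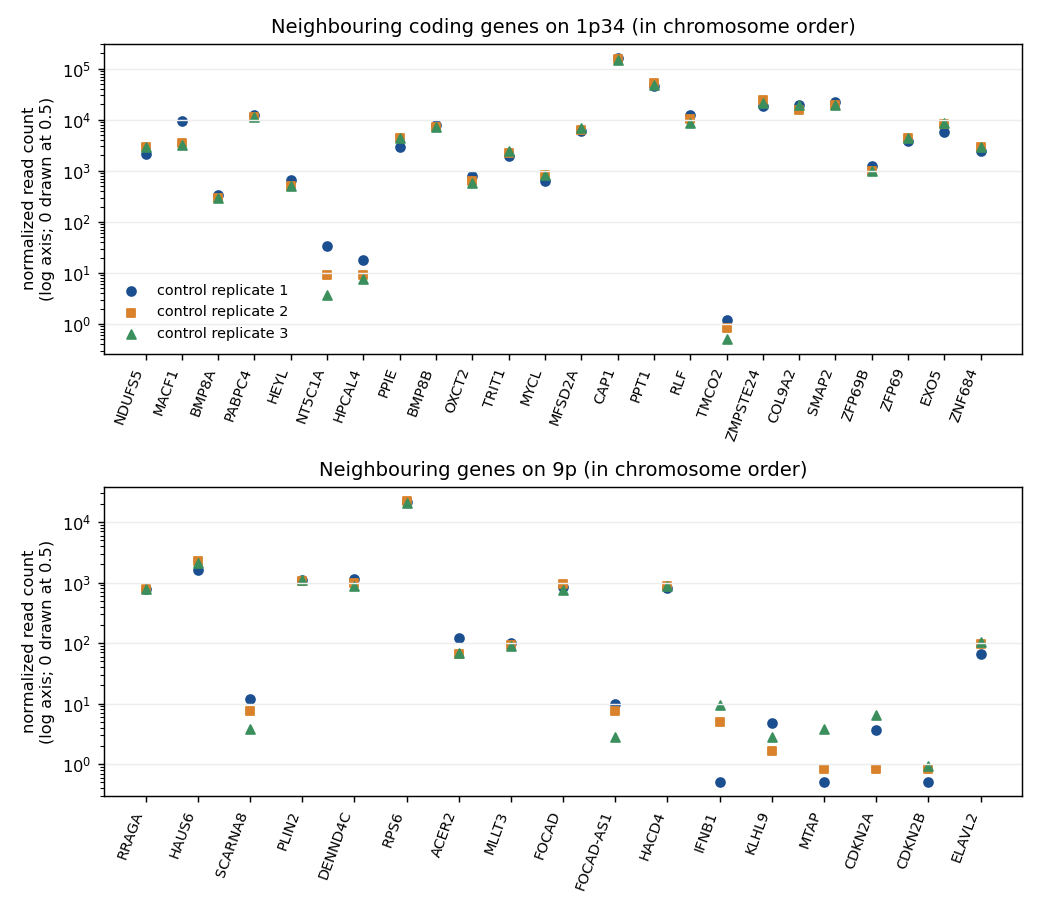
Normalized read counts (log axis, 0 drawn at 0.5) of neighbouring genes in chromosome order on the short arms of chromosomes 1 and 9, with a marker for each control library. CAP1 tops the first panel between 148970 and 161437, and the 5 genes from IFNB1 to CDKN2B stay below 10 in the second between HACD4 and ELAVL2.

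Genes of the major histocompatibility complex had few reads. RefSeq has 190 coding genes that start between 28 and 34 Mb of chromosome 6. Of these, 52 were in the table (27.4%, against 76.4% of all RefSeq coding genes). Among the 52, 23 were present (44.2%, against 77.7% of all coding genes in the table). HLA-B and HLA-C, class I antigens of nearly all nucleated cells, had 5, 5 and 14 reads and 0, 3 and 6 reads. B2M, their shared light chain encoded on chromosome 15, had 163, 334 and 409 CPM. HLA-DRB1, a class II chain, had 260, 937 and 745 reads.

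The coding genes that start in the pseudoautosomal regions of the X chromosome were in the table about as often as those of the rest of chromosomes 6 and X, 13 of 19 (68.4%) against 71.0%. Of these 13, 6 were present (46.2%). SLC25A6, a mitochondrial ADP/ATP carrier, had 90, 82 and 37 reads, and CSF2RA, a chain of the receptor for granulocyte-macrophage colony-stimulating factor, had 20, 102 and 12 reads. In the rest of chromosomes 6 and X, 73.6% of the coding genes in the table were present. The HLA and pseudoautosomal genes lie in sequence that the reference genome holds in more than 1 copy or in alternative versions, and whether the authors' counting lost reads there was not tested.

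All 19 housekeeping genes of a list of 20 that were in the table were present, against 69.9% of all genes. YWHAZ had 889, 885 and 850 CPM and GUSB 116, 106 and 107 CPM, and on the log2 scale of normalized counts these had SDs of 0.08 and 0.10. Their levels were close in all 3 controls. GAPDH had 1893, 1490 and 1381 CPM, and B2M and ACTB spread furthest, with SDs of 0.66 and 0.38, since replicate 1 was lowest for each. The SDs of EEF1A1, SDHA, IPO8, TFRC, RPL13A, RPLP0, GAPDH, PPIA, PGK1, HPRT1, POLR2A, TBP and HSP90AB1 lay between 0.13 and 0.37.

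Of the 4562 genes that averaged 50 CPM or more, whose median SD was 0.19, the 10 with the smallest SD were GOSR2, GRK2, P3H1, DDX60, NUFIP2, RELA, ASAP1, NDFIP1, TDP1 and AFF1. GOSR2, a Golgi SNARE, had normalized counts of 999, 1001 and 1002, and RELA, the NF-kappa-B subunit, had 1120, 1125 and 1122. None of the 10 is in the housekeeping list. They were ranked on the same 3 libraries, so the closeness of their values describes the ranking.

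The spread between controls was measured on log2(normalized count + 1) for the 13608 genes that averaged 1 CPM or more. The median SD was 0.24 (5th to 95th percentile 0.05 to 0.77), and the median coefficient of variation of CPM was 17.1%. For 1850 genes (13.6%) the lowest and highest control differed at least 2-fold. The reads of 9775 genes (71.8%) differed between the controls beyond counting error in the same chi-square test. Without replicate 1 that number was 3273 and the median SD 0.09.

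The spread of well-covered genes was larger than counting error. Between 30 and 100 CPM the median coefficient of variation was 14.0% where counting alone gives 3.39%, and above 1000 CPM it was 13.8% where counting gives 0.634%. Between 1 and 3 CPM it was 31.2% against 18.6% from counting. A 2-fold range was seen in 39.5% of genes between 1 and 3 CPM and in 5.95% between 30 and 100 CPM.

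**Figure D4:**
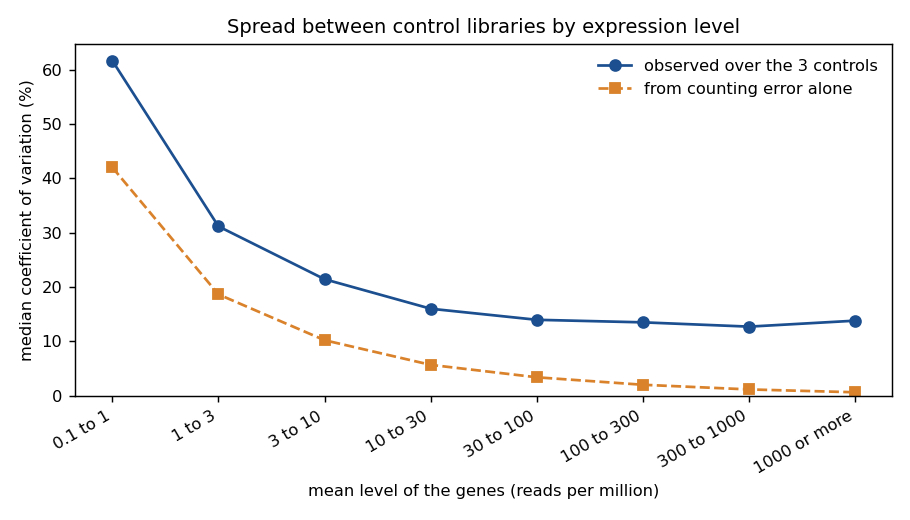
Spread of the 3 controls by level: the coefficient of variation expected from counting reads and that observed, as medians over genes in bins of the mean level in CPM. The observed median is 14.0% from 30 to 100 CPM and 13.8% above 1000, where counting error gives 3.39% and 0.634%.

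Replicate 1 was the library that stood apart. It was at least 2-fold above both others in 462 genes (3.4%) and at least 2-fold below both in 439 (3.23%), on log2(normalized count + 1). Replicate 2 was above in 21 genes (0.154%) and below in 32 (0.235%), and replicate 3 above in 42 (0.309%) and below in 37 (0.272%). The median absolute difference was 0.13 between replicates 2 and 3, 0.35 between 1 and 2, and 0.40 between 1 and 3, on the log2 scale. Replicates 1 and 2 share a flow cell label.

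The deviation of replicate 1 ran with transcript length and base composition. Relative to the mean of the other 2 controls its median log2 level was -0.32 for genes whose longest transcript is under 1 kb, -0.14 from 2 to 4 kb and 0.37 at 8 kb or more. By GC content of that transcript it was -0.22 under 40% and 0.24 at 60% or more. Across 13261 genes Spearman's rho of its deviation was 0.27 with length and 0.26 with GC, as a description over genes, which are not independent. For replicates 2 and 3 the signs were the opposite, -0.16 and -0.29 with length and -0.31 and -0.16 with GC, which the deviation of replicate 1 enters, because each library was set against the other 2.

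**Figure D5:**
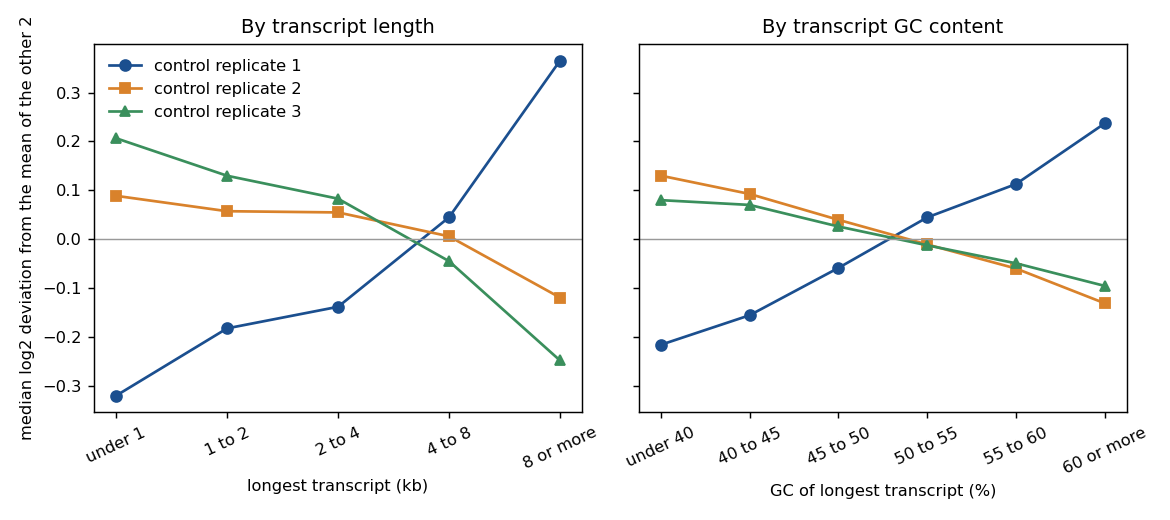
Median log2 deviation of each control from the mean of the other 2, by length in kilobases (left) and GC content in percent (right) of the longest transcript. Replicate 1 climbs from -0.32 to 0.37 with length and from -0.22 to 0.24 with GC content.

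The 6 genes furthest above in replicate 1, among genes averaging 10 CPM or more, were RN7SK, ZNF462, AHNAK2, CSPG4, HIVEP3 and LRP1, the last 5 of which have transcripts of 8290 to 18335 bases. AHNAK2 had normalized counts of 1952, 458 and 394, and LRP1, an endocytic receptor, 1225, 345 and 313. The 6 furthest below were CD99, SAP25, ND3, FLNA, SERF2 and ATP5ME. CD99, a leukocyte adhesion protein of the pseudoautosomal region, had 20, 533 and 450 reads, and ATP5ME, a small ATP synthase subunit, had normalized counts of 336, 1495 and 1647. FLNA, filamin, is an exception to the length pattern, with a transcript of 8516 bases and normalized counts of 149, 722 and 878.

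Some RNAs that are not polyadenylated were higher in replicate 1. RN7SK, a small nuclear RNA that holds the elongation factor P-TEFb, had 1287, 74 and 73 reads. RMRP and RPPH1, the RNAs of the endoribonucleases MRP and P, had 373, 6 and 16 reads and 381, 11 and 12 reads. RN7SL1, the RNA of the signal recognition particle, had 2521, 1148 and 835 reads. These 4 were far above the other controls in replicate 1. RN7SL2, another gene of the signal recognition particle RNA, was less far above, with 2403, 2457 and 1329 reads. Its normalized counts were 2907, 2040 and 1246. The 18 snRNA genes summed to 98.4 CPM in replicate 1, of which RN7SK held 92.3, and the other 17 summed to 6.10, 3.38 and 3.71 CPM.

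The other RNA classes did not all follow. The 193 snoRNA genes summed to 117, 177 and 241 CPM, lowest in replicate 1. The 2 rRNA genes summed to 25057, 13069 and 9728 CPM and the 56 tRNA genes to 1371, 1243 and 964 CPM, both highest in replicate 1. Of the histone genes, whose mRNAs mostly lack a poly(A) tail, HIST2H2AC had normalized counts of 37.5, 81.4 and 77.8 and HIST1H2BH 29.03, 62.3 and 74.0, lowest in replicate 1, while HIST1H4H had 64.1, 2.49 and 2.81. These 3 are the histone genes whose symbols begin with HIST among genes of at least 1 CPM on average that were at least 2-fold apart in a control. Of the nuclear long noncoding RNAs, MALAT1 had normalized counts of 18161, 7802 and 7454, highest in replicate 1, and NEAT1 had 3040, 4690 and 5797, lowest in replicate 1. What part the poly(A) capture had in the deviation of replicate 1 was not tested.

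Replicates 2 and 3 deviated in few genes. Above in replicate 2 were EIF3CL, LSM14A, U2AF1L5, TRNT, HOXA9 and ITPK1, and below NAP1L4, P2RX7, ABCC1, TTC39B, WDSUB1 and MMP25. Of these, EIF3CL and LSM14A passed 2-fold against both others. EIF3CL had 75, 587 and 41 reads, and as a near-identical copy of EIF3C, as is U2AF1L5 of U2AF1, its count is uncertain.

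In replicate 3 the genes furthest above were YWHAE, MIR155HG, NAP1L4, TPM2, PCED1A and SNHG12, and those furthest below LPCAT1, RNH1, EIF3CL, ATP8, LINC02067 and TRNH. Of these, YWHAE above and LPCAT1, RNH1 and EIF3CL below passed 2-fold against both others. RNH1, ATP8 and TRNH were also at least 2-fold above both others in replicate 1. YWHAE, a 14-3-3 protein, had normalized counts of 81.0, 135 and 505. MIR155HG, the host gene of the myeloid and lymphoid microRNA miR-155, had 134, 209 and 377, lowest in replicate 1. LPCAT1, a phospholipid-remodelling enzyme, had 392, 365 and 104. Below the 10 CPM limit of this ranking, and chosen after its values were seen, PARN, a deadenylase, had normalized counts of 174, 135 and 2.81.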

How the data were processed

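Per the labels' protocols, poly(A) RNA of THP-1 cells was sequenced after random priming. No source used here states strand, so overlapping genes, antisense genes and near-identical paralogs are uncertain. The submitters' processing notes name the build hg38 and the tools featureCounts 1.6.2, HISAT2 2.1.0, DESeq2 1.18.1 and Picard, without roles, annotation or filters. The authors' file headers call the columns counts, yet the values the authors deposited are a signal on a normalized scale. In each control library they were, for 100% of genes and to within 0.001, multiples of the smallest non-zero value, which is what gene counts divided by 1 scaling factor give. Reads were recovered by that division, and CPM is reads over the library's summed reads on genes.

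Only the 3 control columns were used. Of the 18522 genes, 195 have an Entrez identifier and no symbol and took 0.0559% of the reads; 22 symbols had been turned into dates and were restored by identifier. Positions, found for 18250 genes, and types come from RefSeq (GRCh38.p14) by identifier. Coding length, the longest coding sequence of a gene (15347 genes), the exon union (17580 genes), and the length and GC content of the longest transcript come from GENCODE 29; a protein table, planned for the coding length, was not used.

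Spread was the SD of log2(value + 1), with a pseudocount of 1, for genes averaging 1 CPM or more. Each gene's reads were compared with the libraries' total reads by a chi-square test with Benjamini-Hochberg adjustment at 0.05. The test compares these libraries only. In simulated data of 13608 genes for this test it called 90%, 82%, 94% and 100% of genes changed 0.5-, 1.5-, 2- and 4-fold in 1 library, and 12 of 13408 unchanged genes. Python 3.11.15, numpy 2.4.6, pandas 2.3.3 and scipy 1.17.1 were used, with R 4.3.3 and edgeR 4.0.16 for an alternative TMM scaling.

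The members and the 29 gene lists (511 entries, 402 in the table) were chosen with earlier results of these data known. Genes were named by rule: RASSF2, the 30 genes with the most reads and the 20 with the most per coding kilobase, up to 4 members of each list with the most reads, members of other lineages at 5 CPM or more, all HOX, 9p21 and RASSF genes, the 6 genes furthest above and below in each library at 10 CPM or more, the 10 steadiest at 50 CPM or more, all housekeeping genes, and the 10 highest and lowest windows. A few genes and 1 window that this rule names are not reported here. Other members were named after their values were seen. Alternatives tried were other presence limits, pseudocounts, filters, scalings and lengths, leaving out mitochondrial genes and leaving out each control.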

Additional observations from a re-analysis of the deposited data

How the results depend on the processing

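Of 60 alternative values for 8 results, 52 stayed within 1.5 times the main count or within 1 SD of the main value, 19 of them among the 21 that leave out a control. The exceptions follow. With presence set at 5 CPM, 6 T, B and NK cell genes were present in place of 14. Genes with 1 control at least 2-fold from both others numbered 1033 at 1 CPM, 474 at 5 CPM and 3962 with no filter, and no value without a control exists because the count needs all 3. Per kilobase of coding length, 448 genes held 50% of the signal in place of 949, and the top 100 took 29.01% in place of 20.8%; without mitochondrial transcripts they took 16.5%. Leaving out each control in turn gave 3273 to 9104 genes beyond counting error, where all 3 gave 9775, and a median SD of 0.0920 to 0.280, where all 3 gave 0.24. The lowest of both ranges, 3273 genes and 0.0920, came without replicate 1. For the other 5 results leaving out a control changed the value within those limits: 13039 to 13240 present genes, 19 to 20 present monocyte genes, 14 lymphoid genes, 916 to 964 genes for 50% of the reads and 20.4% to 21.3% in the top 100. No paired analysis was possible because only the control group was analysed and no groups were compared. The filter sets which genes are counted, and low genes more often had a 2-fold range: 39.5% of genes between 1 and 3 CPM and 5.95% between 30 and 100. What part counting error had in the changes with the filter was not tested. Levels under 3 reads per library cannot be told from 0.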
